A study of Mus musculus with 21 samples.

Results

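The J chain and 4 further genes of the plasma cell programme were followed: Jchain, Prdm1, Xbp1, Mzb1 and Sdc1. The members were all probe sets whose gene symbol in the platform annotation is one of these names. This gave 11 probe sets for 5 genes, out of 45037 probe sets and 18193 genes on the array. All 11 passed the filter on low values in each fit, which needed only 3 arrays above it.

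The data were 21 Affymetrix Mouse Genome arrays, 1 per sample, in 7 groups of 3. The first 4 groups were bone marrow cells positive for B220, a surface marker of the B lineage, taken on a cell sorter. They came from wild-type mice, from Cebpb LAP transgenic mice (LAP tg), from mice labelled Blnk KO, and from mice labelled with both changes (LAP tg/Blnk KO). LAP is an activating form of C/EBPβ, a transcription factor of myeloid cells among others. BLNK is an adaptor protein that carries the pre-B cell receptor signal inward. The other 3 groups were LB31, a pre-B acute lymphoblastic leukaemia line from a Blnk KO mouse, transduced with a pMY retroviral vector. The vector was empty (pMY), held Blnk cDNA (BLNK) or held Blnk cDNA with a loss-of-function mutation (BLNK YF). All LB31 groups thus share the knockout origin, the vector backbone and growth in 5 ng/ml of interleukin 7. The sources used here do not state the ages of the mice, the promoter that drives LAP or whether LB31 is 1 clone. Nor do they state if the 3 samples of a group are separate mice or cultures, so p-values measure only the spread among those samples, possibly a technical one.

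Plasma cells are the antibody-secreting end stage of the B lineage. Blimp-1, the product of Prdm1, is a repressor that shuts off B-cell identity genes, and XBP1 is the transcription factor that enlarges the endoplasmic reticulum (ER) for secretion. The J chain is a small protein that joins IgM and IgA into polymers. MZB1 is an ER protein that assists immunoglobulin folding and assembly, and syndecan-1 (CD138, from Sdc1) is the surface proteoglycan by which plasma cells are usually sorted. In B220-positive marrow most B-lineage cells are precursors, and mature plasma cells carry little B220.

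Promoter sequences from RefSeq (build GRCm38.p6) were found for 4 of the 5 genes, and the 250 bases before the transcription start were searched on both strands for 6 motifs. Jchain and Xbp1 are printed because they were the only ones with a match. Capitals mark GCAAT, the core of a C/EBP site, or its reverse complement ATTGC. In Jchain they also mark CACGT, the reverse complement of the XBP1 core ACGTG. The Jchain window lies at chr5:88527898-88528147 on the minus strand and the Xbp1 window at chr11:5520391-5520640 on the plus strand, both 5′ to 3′ along the gene.
Jchain: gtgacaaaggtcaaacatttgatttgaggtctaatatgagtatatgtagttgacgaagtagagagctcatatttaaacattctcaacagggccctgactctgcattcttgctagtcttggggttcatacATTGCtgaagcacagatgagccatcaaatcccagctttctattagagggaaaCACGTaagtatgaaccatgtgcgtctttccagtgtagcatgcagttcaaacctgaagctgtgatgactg
Xbp1: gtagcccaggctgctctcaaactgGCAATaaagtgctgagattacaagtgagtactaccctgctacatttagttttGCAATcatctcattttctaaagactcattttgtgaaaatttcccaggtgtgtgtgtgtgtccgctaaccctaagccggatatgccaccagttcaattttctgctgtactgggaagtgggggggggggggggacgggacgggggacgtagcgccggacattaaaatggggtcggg
In Jchain the C/EBP core began 121 bases and the XBP1 core 69 bases before the start, both on the strand opposite to the gene. In Xbp1 the C/EBP core began 226 and 174 bases before the start, on the gene's strand. These letters are common: GCAAT was in 23.1% and ACGTG in 16.6% of the 32851 promoters of the table. The full C/EBP palindrome TTGCGCAA (0.164% of promoters), the octamer ATGCAAAT (1.6%), the PRDM1 core GAAAGTG (4.01%) and the E-box CAGCTG (13%) were in none of the 4 windows. ATGCAAAT and GCAAT do not overlap in their letters beyond GCAA. Prdm1 and Sdc1 held none of the 6 motifs.

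Values are log2 of the deposited signal plus 4, quantile normalized over the 21 arrays, and n is 3 in every group. A difference was called at an adjusted p under 0.05 (limma, two-sided, Benjamini-Hochberg over all probe sets tested). Where a gene has several probe sets, the brightest represents it. The level of the low-value filter corresponds to about 4.06 on this scale. Median deposited signals of single arrays ran from 15.3 to 31.4, and replicate arrays correlated at 0.963 to 0.980 over all probe sets. The Blnk probe set 1451780_at gave 12.4 ± 0.0876 (SD) in wild-type and 12.4 ± 0.242 in marrow labelled Blnk KO, and in LB31 it was lowest with BLNK, at 8.56 ± 0.0584. It does not follow the labels, and the sources used here do not say if its target lies in the deleted part or in the cDNA. So the label Blnk KO had no check from this gene, and every direction drawn from it below rests on the label. A Cebpb probe set, 1427844_a_at, gave 10.0 ± 0.152 in LAP tg and 9.90 ± 0.0832 in doubly labelled marrow against 5.43 ± 0.101 in wild-type. It was also high in LB31, at 10.2 ± 0.105 with pMY, 10.1 ± 0.0476 with BLNK and 10.1 ± 0.157 with BLNK YF. In marrow labelled Blnk KO it was 5.02 ± 0.349. The LB31 sample titles do not name LAP, so a match in LAP between LB31 and marrow labelled Blnk KO cannot be assumed. A second Cebpb probe set, 1418901_at, did not follow the LAP label, at 8.31 ± 0.995 in LAP tg, 7.20 ± 0.386 in doubly labelled and 7.28 ± 0.232 in wild-type marrow, and 4.62 ± 0.417 in LB31 pMY.

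LAP tg array 3 stood apart in markers of other cells. The summed signal of 11 neutrophil markers was 63914 there, against 30604 and 22057 on the other LAP tg arrays and 20227 to 25274 in wild-type. All 11 were above the filter on every marrow array. The sum was 16320 to 35801 in marrow labelled Blnk KO and 37581 to 48788 in doubly labelled marrow. Across LB31 it was 41.0 to 125, with 5 or 6 of the 11 markers under the filter on all arrays of a group. The 9 B-lineage markers summed to 27990 to 35491 in marrow and to 19231 to 21750 in LB31. Taken singly, 5 of these 9 were called lower and 2 higher in marrow labelled Blnk KO than in wild-type (median -0.45), and the counts were equal for doubly labelled marrow (median -0.80). The shares of all probe sets called were 12.7% and 25.2%. Called differences that use LAP tg array 3 are given with and without it for the brightest member probe sets and the immunoglobulin genes.

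Jchain had the widest range of the 5 genes. Its level was high in 3 marrow groups, wild-type, LAP tg and labelled Blnk KO, and near the filter in doubly labelled marrow and in LB31. The deposited signals were 707, 570 and 917 in wild-type and 548, 906 and 2096 in LAP tg marrow. They were 919, 700 and 952 in marrow labelled Blnk KO, and 11.9, 16.8 and 26.5 in doubly labelled marrow. The 9 LB31 arrays lay between 10.6 and 26.8. The lowest array of the 3 high groups, at 548, was far above the highest of the low groups, at 26.8, and among the high groups the ranges overlapped.

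**Figure D1:**
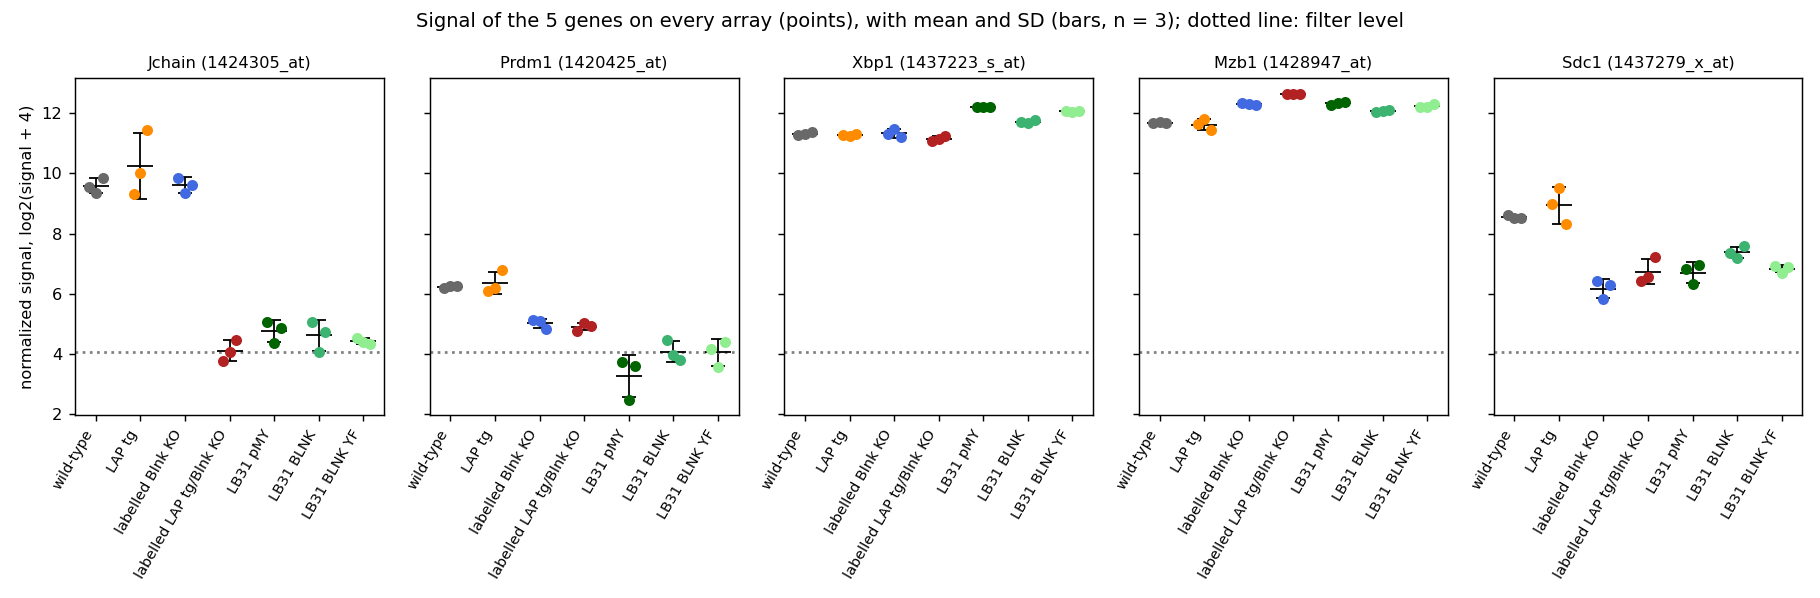
Normalized signal (y axis, log2 of signal plus 4) of the brightest probe set of each gene in the 7 groups (x axis). Points are arrays, bars the mean and SD, and the dotted line the filter level; Jchain sits above 9 in 3 marrow groups and under 5.1 elsewhere, while Xbp1 and Mzb1 are bright in every group.

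After normalization the Jchain mean was 9.59 ± 0.246 in wild-type, 10.3 ± 1.09 in LAP tg, 9.60 ± 0.261 in marrow labelled Blnk KO and 4.11 ± 0.347 in doubly labelled marrow, where 1 of 3 arrays was above the filter. Doubly labelled marrow was lower than marrow labelled Blnk KO by a log2 difference of -5.50 ± 0.39 (SE), which is 45.1-fold (adjusted p = 1.13e-06). Against wild-type the log2 difference was -5.48 (adjusted p = 2.19e-07), and against LAP tg it was -6.15 (adjusted p = 8.38e-08), or -5.55 without LAP tg array 3. The size depended on the pseudocount because the low group is dim: the log2 difference from marrow labelled Blnk KO was -5.78 with a pseudocount of 1 and -4.74 with 16. Fewer cells that carry Jchain and less Jchain RNA per cell cannot be told apart in bulk samples.

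Neither label alone went with a call for Jchain. Marrow labelled Blnk KO differed from wild-type by 0.01 on the log2 scale (95% interval -0.82 to 0.85). LAP tg differed from wild-type by 0.67 (adjusted p = 0.382), and by 0.07 without LAP tg array 3, whose normalized value of 11.4 was the highest of all. The interaction, which is the LAP change in the presence of the Blnk KO label minus the LAP change without it, was -6.16 ± 0.55 (SE, adjusted p = 4.62e-05). Without LAP tg array 3 it was -5.56. Of the 30112 probe sets tested for the interaction 1.18% were called, and Jchain was the only one of the 5 genes among them. Mzb1 (0.40) joined it in the fit of all 21 arrays (adjusted p = 0.0187) and, at 0.49, without LAP tg array 2 (adjusted p = 0.0172). In LB31 the Jchain means were 4.77 ± 0.355 with pMY, 4.62 ± 0.510 with BLNK and 4.42 ± 0.106 with BLNK YF, with no call between them. LB31 pMY differed from marrow labelled Blnk KO by -4.83 on the log2 scale (28.5-fold lower, adjusted p = 1.09e-10) and from doubly labelled marrow by 0.66, a difference that was not called (called without LAP tg array 3, adjusted p = 0.0255).

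The 3 genes whose profile over the 7 groups was nearest to that of Jchain were Igha, Cxcr5 and Fcer2a. Likeness was the mean absolute difference of centred group means over 14643 genes, whose median was 2.64. For Igha, the IgA heavy chain, it was 0.45. Its means were 10.2 in wild-type, 11.6 in LAP tg (11.2 without LAP tg array 3), 11.4 in marrow labelled Blnk KO, 4.27 in doubly labelled marrow and 4.97 to 5.19 in LB31. For Cxcr5, the chemokine receptor that guides B cells to follicles, it was 0.48, and for Fcer2a, the low-affinity IgE receptor CD23, it was 0.58. Both of these had lower means in marrow labelled Blnk KO (7.86 and 7.89) than in wild-type (9.36 and 9.95), where the Jchain means were alike. In doubly labelled marrow and LB31 their means were 3.09 to 3.79 and 3.20 to 4.15, near or under the filter level. The Igha probe set 1429381_x_at is of a kind that can cross-hybridise with related sequences.

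Prdm1 and Sdc1 shared a direction in marrow: both were lower wherever the Blnk KO label was present, with or without LAP. For Prdm1 (1420425_at) the deposited signals were 69.5, 67.4 and 80.1 in wild-type and 62.7, 68.9 and 98.4 in LAP tg marrow. They were 39.6, 41.8 and 35.0 in marrow labelled Blnk KO and 30.5, 38.6 and 39.5 in doubly labelled marrow. The 6 arrays without the label were all above the 6 arrays with it. Against wild-type the log2 difference was -1.22 ± 0.19 for the label Blnk KO (2.33-fold lower, adjusted p = 0.00068) and -1.33 ± 0.19 for both labels (2.51-fold lower, adjusted p = 0.000134). Against LAP tg, doubly labelled marrow differed by -1.45 (adjusted p = 7.42e-05), or by -1.24 without LAP tg array 3. Between doubly labelled marrow and marrow labelled Blnk KO it was -0.11 and was not called. In LB31, Prdm1 was above the filter on 3 of 9 arrays, with deposited signals of 1.60 to 15.2, and no LB31 comparison was called. LB31 pMY, under the filter on all 3 arrays, has only a bound there: marrow labelled Blnk KO was at least 1.94-fold higher, taking the filter level for the pMY arrays (adjusted p = 3.38e-05).

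The genes nearest to Prdm1 in profile were Dmxl1 (0.19), Pou6f1 (0.20) and Casp9 (0.21), against a median of 0.99 over the same genes. Casp9 encodes caspase-9, the initiator of the mitochondrial cell death pathway, and Pou6f1 a POU-domain transcription factor. Like Prdm1 they had their highest means in wild-type or LAP tg marrow and their lowest in LB31 pMY.

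Sdc1 had 4 probe sets, and the brightest, 1437279_x_at, gave deposited signals of 374, 324 and 376 in wild-type marrow. In LAP tg marrow they were 445, 663 and 271, the lowest being on LAP tg array 3. In marrow labelled Blnk KO they were 97.2, 70.9 and 105, and in doubly labelled marrow 103, 115 and 185. The log2 difference from wild-type was -2.38 ± 0.27 for the label Blnk KO (5.20-fold lower, adjusted p = 5.9e-05) and -1.81 ± 0.27 for both labels (3.51-fold lower, adjusted p = 0.000223). Against LAP tg, doubly labelled marrow differed by -2.20 (adjusted p = 5.23e-05), or by -2.51 without LAP tg array 3. The highest array with the label, at 185, was below the lowest without it, at 271. The probe sets 1415943_at and 1415944_at were also called lower, by -1.79 and -1.14 for the label Blnk KO and by -1.62 and -0.87 for both labels. The last of these calls was lost when wild-type array 2 or 3 or doubly labelled array 2 or 3 was left out, and on the deposited values (adjusted p = 0.176). The dim probe set 1448158_at, above the filter on 5 of 12 marrow arrays, was not called in any marrow comparison. In doubly labelled against LAP tg marrow it differed by -1.21 (adjusted p = 0.0785), with no overlap of the arrays. That difference was called in the fit of all 21 arrays (adjusted p = 0.0184) and without array 3 labelled Blnk KO (adjusted p = 0.0386). No Sdc1 probe set was called between doubly labelled marrow and marrow labelled Blnk KO. Nor was any called between LAP tg and wild-type marrow, though all had higher means in LAP tg. The differences were 0.39 at 1437279_x_at, 0.58 at 1415943_at, 0.68 at 1415944_at and 0.40 at 1448158_at. At 1415943_at these arrays did not overlap, and it was called in the fit of all 21 arrays (adjusted p = 0.0421). Without LAP tg array 3, 1415943_at and 1415944_at were not called (adjusted p = 0.162 and 0.064).

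**Figure D2:**
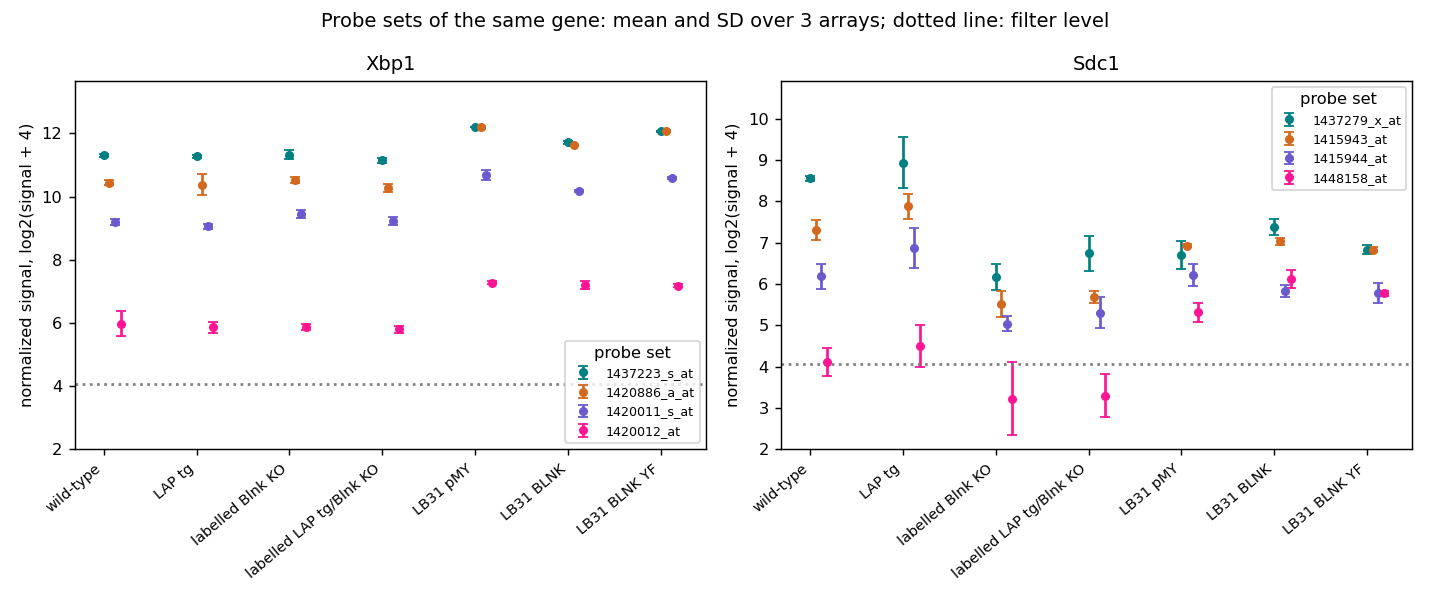
Mean and SD over 3 arrays (y axis, log2 of signal plus 4) of each probe set of Xbp1 (left) and Sdc1 (right) in the 7 groups (x axis), with the filter level dotted. The Xbp1 probe sets are all higher in LB31 than in marrow, whereas the Sdc1 probe sets differ in where LB31 lies relative to marrow.

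The genes nearest to Sdc1 in profile were Islr2 (0.24), Ehd4 (0.27) and Cdk5r1 (0.28), against a median of 0.91. Ehd4 encodes an endocytic recycling protein and Cdk5r1 the p35 activator of CDK5. Ehd4 had means of 8.65 in wild-type and 9.21 in LAP tg marrow against 7.30 and 7.47 with the Blnk KO label. In LB31 it was 7.93 with BLNK and 7.06 with pMY.

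In LB31 the Sdc1 probe sets disagreed. Like the Igha probe set, the brightest, 1437279_x_at, is of a kind that can cross-hybridise with related sequences. With BLNK, 1437279_x_at was higher than with pMY by a log2 difference of 0.67 ± 0.15 (1.59-fold, adjusted p = 0.0128), a call lost without BLNK array 3 (adjusted p = 0.0641). Its deposited signals were 123, 136 and 172 with BLNK against 109, 49.7 and 92.2 with pMY, and these did not overlap. The probe set 1448158_at was also higher, by 0.81 (adjusted p = 0.00856), while 1415943_at (0.11) and 1415944_at (-0.38) were not called. Against BLNK YF 1437279_x_at was higher by 0.54, which was not called (adjusted p = 0.0556) but was when any 1 of the pMY arrays was left out. Fitted with all 21 arrays neither call against pMY held (adjusted p = 0.133 and 0.253). Against marrow labelled Blnk KO, LB31 pMY was higher at 1415943_at, 1415944_at and 1448158_at, by 1.41, 1.17 and 2.08, but 1437279_x_at differed by 0.53 and was not called (adjusted p = 0.0658). It was called when LAP tg array 2 or 3, array 1 labelled Blnk KO, doubly labelled array 3 or pMY array 2 was left out. The difference at 1415944_at lost its call on the deposited values (adjusted p = 0.19). On that scale 1437279_x_at differed from marrow labelled Blnk KO by -0.17, not called, and from doubly labelled marrow by -0.68 (adjusted p = 0.031), so the direction of this probe set against marrow labelled Blnk KO turns with the scaling.

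Xbp1 went another way: it showed no call in marrow and was higher in LB31. Its brightest probe set, 1437223_s_at, gave deposited signals from 1910 to 2823 on the 12 marrow arrays. The normalized means were 11.3 ± 0.0508 in wild-type, 11.3 ± 0.0417 in LAP tg, 11.3 ± 0.139 in marrow labelled Blnk KO and 11.1 ± 0.0868 in doubly labelled marrow. The doubly labelled arrays, at most 11.24, were just under the wild-type arrays, at least 11.26, and the other pairs of groups overlapped. None of the 4 probe sets was called in any marrow comparison. With arrays centred on their median instead, this probe set was called lower in doubly labelled than in wild-type marrow, at -0.26 (adjusted p = 0.0226). The probe set 1420011_s_at was called higher with the label Blnk KO than in wild-type in the fit of all 21 arrays (0.26, adjusted p = 0.0334) and on the deposited values (0.48, adjusted p = 0.0177). It was also called higher on the deposited values in doubly labelled than in LAP tg marrow (0.55, adjusted p = 0.00441). The sources used here do not say if any of the 4 probe sets tells the spliced message, which encodes the active factor, from the unspliced one.

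In LB31 pMY the same probe set gave 5520, 3745 and 4523, above every marrow array. It held the same rank on all 3 arrays, so its normalized value was 12.2 on each. Against marrow labelled Blnk KO the 4 probe sets were higher by 0.89, 1.66, 1.23 and 1.41 on the log2 scale (adjusted p from 8.92e-12 to 8.95e-08). Against doubly labelled marrow they were higher by 1.07, 1.92, 1.45 and 1.47.

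BLNK went with a lower Xbp1 level in LB31. The deposited signals of 1437223_s_at were 3525, 4009 and 4140 with BLNK and 5062, 5318 and 5210 with BLNK YF. The BLNK and BLNK YF arrays did not overlap, whereas the BLNK and pMY arrays did before normalization and not after it. Against pMY the log2 difference was -0.49 ± 0.03 (1.41-fold lower, adjusted p = 9.4e-07), and 1420886_a_at and 1420011_s_at gave -0.57 and -0.49, both called. Against BLNK YF the 3 probe sets gave -0.35, -0.45 and -0.40, all called. The dimmer 1420012_at was not called, at -0.08 and 0.02. This result depends on the scale: for 1437223_s_at the difference from pMY was -0.23 on the deposited values (adjusted p = 0.545) and -0.21 with arrays centred on their median (adjusted p = 0.173), both lower but not called. On the deposited values none of the 3 probe sets kept its call against pMY, and after centring 1420886_a_at alone did. Against BLNK YF, 1420886_a_at kept its call under both, and 1437223_s_at under neither (adjusted p = 0.137 and 0.0866). BLNK YF did not differ from pMY by a call, at -0.15 (called without pMY array 1, adjusted p = 0.0156).

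**Figure D3:**
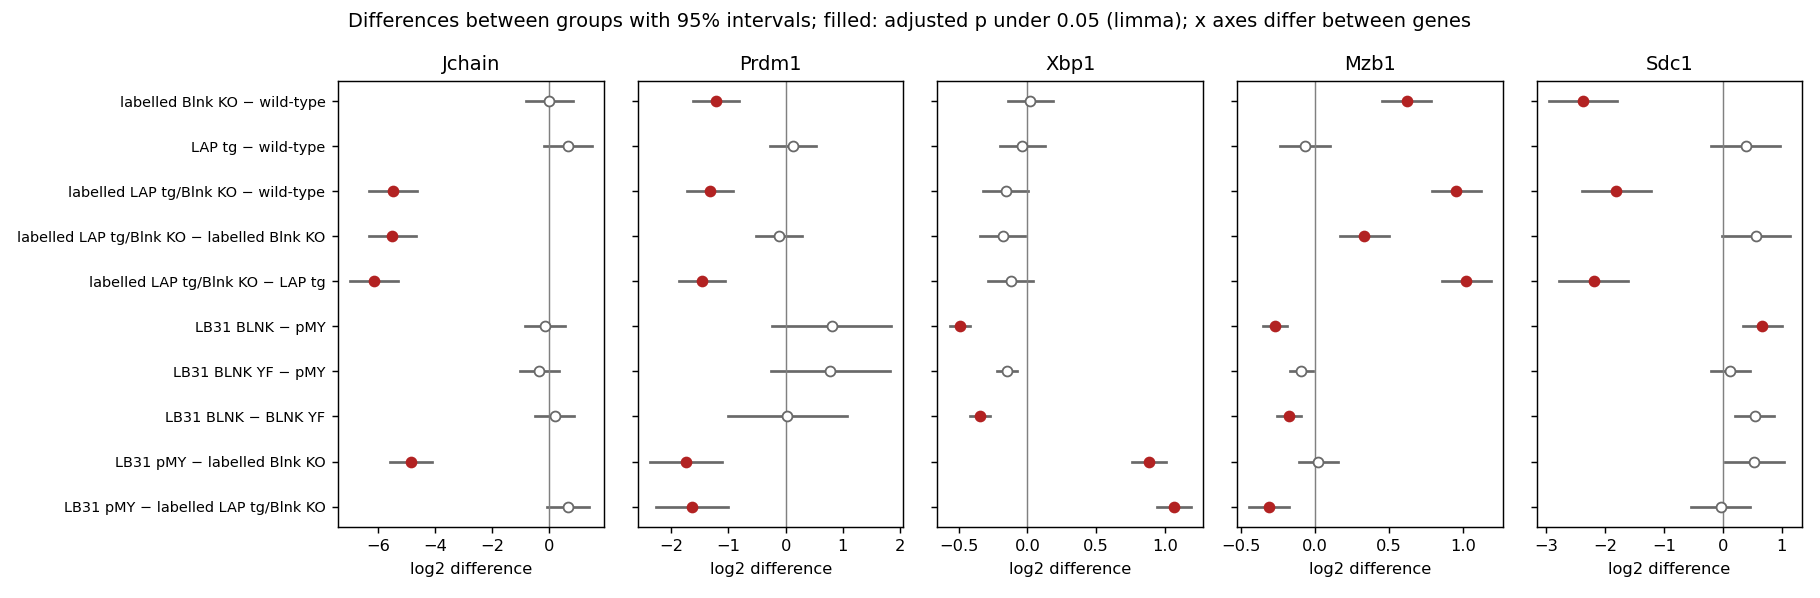
Log2 differences between groups (x axis, scales differ) for the brightest probe set of each gene, with 95% intervals from the limma fits, for 10 comparisons (y axis). Filled points were called; Jchain is called lower wherever doubly labelled marrow is compared within marrow, and Prdm1 and Sdc1 wherever marrow with the Blnk KO label is compared with marrow without it.

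Mzb1 moved opposite to Prdm1 and Sdc1 in marrow. The deposited signals of 1428947_at were 2910, 2756 and 3116 in wild-type and 2618, 3159 and 2066 in LAP tg marrow. They were 4940, 4889 and 5306 in marrow labelled Blnk KO and 5871, 6033 and 6334 in doubly labelled marrow. The 4 groups were ordered with no overlap, other than between wild-type and LAP tg. Against wild-type the log2 difference was 0.62 ± 0.08 for the label Blnk KO (1.54-fold higher, adjusted p = 0.000125) and 0.95 ± 0.08 for both labels (1.93-fold higher, adjusted p = 8.21e-07). Doubly labelled marrow was higher than marrow labelled Blnk KO by 0.33 (adjusted p = 0.0217). That call was lost on the deposited values (0.27), with arrays centred on their median (0.25) and when any 1 of the 6 arrays of these groups was left out (adjusted p from 0.0502 to 0.079). Against LAP tg the difference was 1.02 (adjusted p = 5.33e-07), or 0.92 without LAP tg array 3.

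In LB31 the Mzb1 means were 12.3 ± 0.0392 with pMY, 12.1 ± 0.0260 with BLNK and 12.2 ± 0.0456 with BLNK YF. BLNK was called lower than pMY, at -0.27 (adjusted p = 0.00038), and lower than BLNK YF, at -0.18 (adjusted p = 0.011). On the deposited values the first of these was -0.01, and with arrays centred on their median it was 0.0067, neither of them called. The second was lost under both scalings too (adjusted p = 0.451 and 0.605), in the fit of all 21 arrays (0.217) and without BLNK array 1 (0.0586) or BLNK YF array 3 (0.0684). LB31 pMY differed from marrow labelled Blnk KO by 0.02, which was not called, but by 0.63 with arrays centred on their median (adjusted p = 2.12e-05). LB31 pMY was lower than doubly labelled marrow by a log2 difference of -0.31 (adjusted p = 0.000272), but higher by 0.38 with arrays centred on their median (adjusted p = 0.00436). The direction of Mzb1 between LB31 and doubly labelled marrow therefore turns with the scaling.

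Markers of other cells in the B220-positive gate moved with some of these comparisons. The 9 plasmacytoid dendritic cell markers, a B220-positive type that also carries ER secretory genes, summed to 2802 to 3446 in wild-type, 3632 to 4505 in marrow labelled Blnk KO and 2639 to 3117 in doubly labelled marrow. In LAP tg marrow, where Jchain was high, they summed to 2441 to 2729, under every wild-type array. Of the 8 tested singly, 6 were called lower and 2 higher in doubly labelled than in wild-type marrow (median -0.98), and 6 lower and none higher than in marrow labelled Blnk KO (median -1.08). The shares of all probe sets called were 25.2% and 5.20%. Lag3 was under the filter on all marrow arrays. The 8 megakaryocyte and erythroid markers summed to 7215 to 10511 in doubly labelled marrow against 2639 to 6217 in marrow labelled Blnk KO and 2832 to 2998 in wild-type, with Hba-a1 under the filter throughout. Of the 7 tested singly, 5 were called higher and 0 lower in each of these comparisons, beside 5.20% and 25.2% of all probe sets. The neutrophil sums given above did not overlap between doubly labelled marrow and wild-type marrow or marrow labelled Blnk KO. Taken singly, however, 0 of the 11 neutrophil markers were called against marrow labelled Blnk KO, beside 5.20% of all probe sets. Against wild-type 3 were called, all higher, a share of 27.3% that is near the 25.2% of all. The 12 monocyte and macrophage markers summed to 12540 to 15245 in doubly labelled and 10614 to 12437 in wild-type marrow, and the 8 T and NK cell markers to 645 to 854 and 489 to 535. Taken singly, 2 of the 12 monocyte and macrophage markers were called higher and 2 lower there, a share of 33.3%. Of 7 T and NK cell markers tested 2 were called higher and 0 lower, or 28.6%, beside 25.2% of all probe sets. In marrow labelled Blnk KO the monocyte and macrophage and the T and NK lists summed to 7729 to 12072 and to 887 to 1093. These T and NK sums lay above every wild-type array, and singly 2 of 7 markers were called higher and 0 lower, beside 12.7% of all probe sets. In LAP tg marrow the megakaryocyte and erythroid markers summed to 3202 to 7382 and the monocyte and macrophage markers to 12234 to 23051. The T and NK cell markers summed there to 471 to 709, and each of these lists was highest on LAP tg array 3. The part of these other cells in the differences of Jchain, Prdm1, Sdc1 and Mzb1 was not tested.

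Counted over the brightest probe sets, 3 of the 5 genes were called between marrow labelled Blnk KO and wild-type (1 higher, 2 lower), where 12.7% of all probe sets were called. Between doubly labelled and wild-type marrow 4 were called (1 higher, 3 lower), beside 25.2% of all. Between doubly labelled and LAP tg marrow 4 were called (1 higher, 3 lower), beside 21.2% of all. Between doubly labelled marrow and marrow labelled Blnk KO 2 were called (1 higher, 1 lower), beside 5.20%. Between LAP tg and wild-type marrow none of the 5 was called by limma, beside 2.60% of all, and 0 had an unadjusted p under 0.05. The dimmer Sdc1 probe sets 1415943_at and 1415944_at did (limma, unadjusted p = 0.0115 and 0.0183), without a call. With BLNK against pMY in LB31 3 were called (1 higher, 2 lower), beside 11.4%, and with BLNK against BLNK YF 2 were called, both lower, beside 6.35%. The 1 higher was Sdc1, by its probe set 1437279_x_at. With BLNK YF against pMY 0 were called by limma, beside 0.228%, and 2 had an unadjusted p under 0.05. LB31 pMY differed from marrow labelled Blnk KO in 3 genes (1 higher, 2 lower) and from doubly labelled marrow in 3 (1 higher, 2 lower), but 56.9% and 55.9% of all probe sets were called there. The marrow comparisons share arrays, as do those of LB31, so their counts are not separate evidence. All these shares are over probe sets, whereas the members are counted by gene. With 1 probe set per gene the shares were larger. Marrow labelled Blnk KO against wild-type then had 2284 of 13338 called, and doubly labelled against wild-type marrow 4162 of 13338. BLNK against pMY had 2060 of 13019.

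The regulators that act with these genes were mostly lower in marrow with the Blnk KO label and higher in LB31 with BLNK, though on the deposited values only 1 fell, and 1 rose, with the label alone. The list held Irf4, Pou2af1, Ell2, Zbtb20, Ikzf3 and Ikzf1. Of these 6 genes, 4 fell and none rose in marrow labelled Blnk KO against wild-type, and the counts were equal for doubly labelled marrow, with median log2 differences of -0.44 and -0.58 (0.00 and 0.01 over all probe sets). Beside these counts, 12.7% and 25.2% of all probe sets were called. Ikzf3, the lymphoid zinc-finger factor Aiolos, had log2 differences of -1.30 and -2.82 (adjusted p = 5.48e-05 and 1.06e-08). Ell2, an elongation factor that favours the secreted form of the heavy chain, of -0.90 and -1.42, and Irf4, a factor required for plasma cells, of -0.42 and -0.58 (adjusted p = 0.0103 and 0.00053). On the deposited values 2 fell and none rose with both labels, and the medians were -0.21 and -0.31.

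In LB31 4 of the 6 regulators rose with BLNK against pMY and none fell (median 0.31, against 0.00 over all probe sets), beside 11.4% of all probe sets called. In the fit of all 21 arrays 2 rose. Irf4 rose from 7.85 ± 0.0367 with pMY to 9.17 ± 0.0808 with BLNK, and was 8.06 ± 0.0477 with BLNK YF. The log2 difference was 1.31 against pMY (adjusted p = 5.46e-08) and 1.10 against BLNK YF (adjusted p = 4.09e-07). Ell2 (0.35), Ikzf3 (0.32) and Pou2af1 (0.29), the octamer co-activator OCA-B, were the others. Beside this rise of Irf4, the Prdm1 difference between BLNK and pMY was 0.81 and was not called (adjusted p = 0.338).

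Of 9 B-cell factors that Blimp-1 shuts off or that oppose it, 5 fell and none rose in doubly labelled against wild-type marrow (median -0.49), or 4 fell and 1 rose on the deposited values. The log2 differences were -3.52 for Ciita, the master activator of MHC class II genes, and -1.27 for Spib, an ETS factor of B cells. They were -0.97 for Bach2, a repressor of Prdm1, and -0.85 for Bcl6, the germinal centre repressor. Among all probe sets 25.2% were called in this comparison. With the label Blnk KO alone 2 fell (Ciita -2.32, Spi1 -0.63) and 1 rose (Irf8, 0.47), beside 12.7% of all. In these comparisons Prdm1 was lower as well. With BLNK against pMY in LB31 2 rose and 2 fell, among them Spib (-0.85) and Bach2 (0.41), beside 11.4% of all probe sets called.

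**Figure D4:**
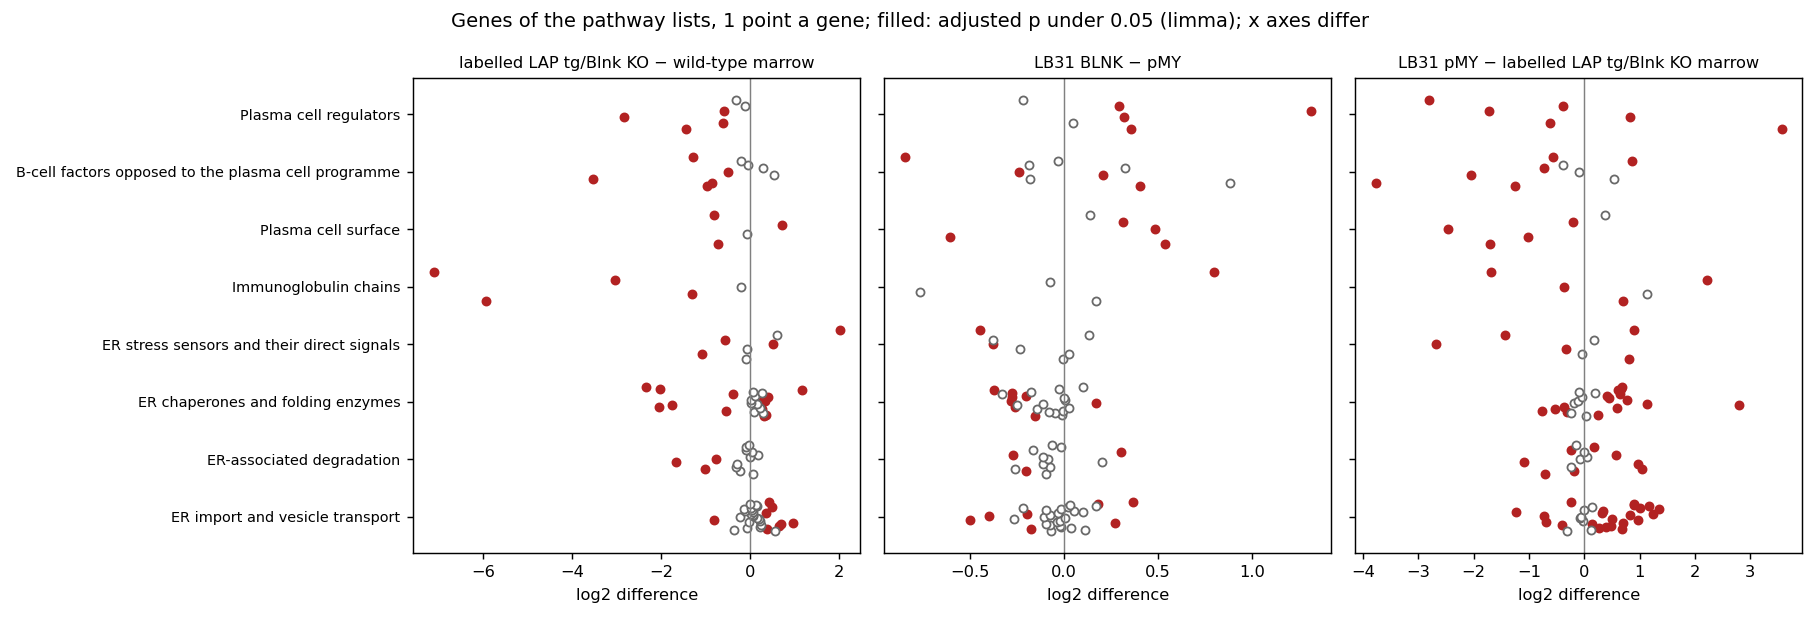
Log2 differences (x axis, scales differ) of the genes of 8 pathway lists (y axis), 1 point per gene from its brightest probe set, in 3 comparisons. Filled points were called; in doubly labelled against wild-type marrow most regulators and immunoglobulin chains lie to the left and the ER lists around 0, with Txndc5, Ero1b, Txndc11, Fkbp11 and Edem3 well to the left.

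Immunoglobulin chains had 5 of 11 listed genes on the array by symbol, all tested in marrow. In doubly labelled against wild-type marrow 4 fell, with log2 differences of -7.11 for Iglv1, -5.94 for Igha, -3.03 for Igk and -1.31 for Ighg3 (adjusted p at most 0.0107). That comparison had 25.2% of all probe sets called. Ighm, the heavy chain of IgM, had means from 12.97 to 13.28 in the 4 marrow groups, and its difference between doubly labelled and wild-type marrow was not called. Like Jchain, Igha was not lower with the label Blnk KO alone, where it rose by 1.17 (adjusted p = 0.0129). Unlike Jchain, Iglv1 (-2.55) and Igk (-0.72) fell there already, beside 12.7% of all probe sets called. The interaction was called for Igha (-8.50), Iglv1 (-3.68) and Igk (-1.96), beside 1.18% of all probe sets. Without LAP tg array 3 it was -8.05, -3.78 and -2.17, all called. In LB31 Igk rose with BLNK by 0.80 against pMY (adjusted p = 0.00413), beside 11.4% of all probe sets called, while Jchain did not change by a call.

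The ER lists, which hold many genes that XBP1 is known to activate, had members called in both directions in marrow. Of 22 chaperones and folding enzymes, 7 rose and 6 fell in doubly labelled against wild-type marrow (median 0.15), where 25.2% of all probe sets were called. The counts were 13 and 4 on the deposited values, and 2 and 6 with arrays centred on their median. The largest log2 differences were falls, of -2.33 for Txndc5, -2.04 for Ero1b, -2.02 for Txndc11 and -1.75 for Fkbp11. Of these, Txndc5 and Txndc11 are thioredoxin-domain proteins of the ER, Ero1b is an oxidase of the disulfide pathway, and Fkbp11 is a prolyl isomerase abundant in plasma cells. Of 13 genes of ER-associated degradation 3 fell (Edem3 -1.65, Herpud1 -0.75 and Derl3, adjusted p = 0.000691) and none rose, a share of 23.1% beside 25.2% of all probe sets. On the deposited values 3 fell and 3 rose. Of 29 tested genes of ER import and vesicle transport 7 rose and 1 fell, a share of 27.6% that is also near the 25.2% of all, led by Rpn2 (0.96), Sec24d (-0.81), Rpn1 (0.70) and Lman1 (0.65). The counts were 16 and 0 on the deposited values and 5 and 3 after centring. Of 7 stress sensors and their signals 2 rose and 2 fell, beside the same 25.2% of all: Trib3 (2.03), Atf6 (-1.08), Ern1 (-0.56), which encodes the IRE1 enzyme that splices Xbp1, and Eif2ak3 (0.53).

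Called chaperones in LB31 were mostly lower with BLNK, but this did not hold under other scalings. With BLNK against pMY, where 11.4% of all probe sets were called, 7 of the 22 chaperones fell and 1 rose (median -0.13, against 0.00 over all probe sets). They were led by Sdf2l1 (-0.37), Hspa5 (-0.28), which encodes BiP, Pdia6 (-0.28) and P4hb (-0.27). On the deposited values these calls were lost (median 0.09), and with arrays centred on their median 1 rose and none fell (median 0.11), so the list's direction turns with the scaling, as the Mzb1 difference did. Of the stress genes in the same comparison Trib3 (-0.45) and Eif2ak3 (-0.38) fell, and neither kept its call on the deposited values or after centring. LB31 pMY against marrow labelled Blnk KO, with the higher Xbp1, had 18 of 29 import and transport genes higher and 5 lower (median 0.41, against 0.08 over all probe sets), led by Srpr (1.35), Ssr2 (1.35), Spcs2 (1.27) and Srp14 (-1.26). The counts were 8 and 6 on the deposited values and 23 and 2 after centring. For the chaperones the counts were 11 higher and 5 lower, led by Fkbp11 (1.92) and Ero1b (-1.81), and 4 higher and 7 lower on the deposited values. These shares stand beside the 56.9% of all probe sets called there.

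Other surface proteins of plasma cells did not follow Sdc1 as a group. Of 4 tested in marrow, 2 fell with the label Blnk KO: Tnfrsf13b (-0.60), the BAFF and APRIL receptor TACI, and Cxcr4 (-0.51), the receptor that holds plasma cells in marrow. Slamf7 rose by 1.40 on the log2 scale, and 12.7% of all probe sets were called there. In doubly labelled against wild-type marrow the differences were -0.80, -0.71 and 0.73. In LB31 3 of 5 rose with BLNK, namely Cxcr4 (0.54), Slamf7 (0.48) and Tnfrsf13b (0.31), and Itga4 (-0.61), an integrin subunit, fell. Between BLNK and pMY 11.4% of all probe sets were called.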

How the data were processed

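Gene expression was measured on 21 arrays in 7 groups of 3. The deposited table holds 1 intensity per probe set on a linear scale; per the submitters' processing notes the authors used MAS5. Its version and any scaling to a target are not given in the sources used here. A total of 64 control probe sets of 45101 were left out. With R 4.3.3 and limma 3.58.1, a pseudocount of 4 was added, log2 taken and the 21 arrays quantile normalized, which removes any overall difference between groups. Changes of dim genes are understated. A probe set was tested if its deposited intensity was above the 40th percentile of its own array on at least 3 arrays of the fit: 30112 in marrow (12 arrays), 29447 in LB31 (9) and 33738 over all 21, the last used for LB31 against marrow. The method was tested on simulated marrow values with known changes planted in the group labelled Blnk KO. That test did not cover the normalization, the interaction or LB31. Group labels came from the sample titles.

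Symbols came from the platform annotation: 34945 probe sets had 1 symbol, 932 had several and were not named, and 9160 had none. Members and gene lists were chosen with earlier results of these data known, so neither is independent evidence. Named were all member probe sets, up to 4 called genes per list with the largest change, and the 3 nearest profiles for members whose group means span at least 2. Ighm was named after its values were seen. Array number limits precision. Alternatives were no normalization, median centring, normalization within each fit, pseudocounts of 1 and 16, no filter, 1 probe set per gene, all arrays in 1 fit, replicate number as a block, and leaving out each array.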

Additional observations from a re-analysis of the deposited data

Results flagged for a closer look

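The LAP change of Jchain (1424305_at) differed between the groups with and without the Blnk KO label, by a test of the difference itself. The interaction was -6.16 on the log2 scale (limma, adjusted p = 4.62e-05). The LAP change was 0.67 without the label and -5.50 with it. All 3 doubly labelled arrays lay under all 3 arrays labelled Blnk KO, whereas LAP tg and wild-type arrays overlapped. Over the 12 fits that each left out 1 marrow array the interaction lay between -6.63 and -5.56.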

How the results depend on the processing

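Of 121 member differences tested, 48 were called. Over all alternatives of these 121, 2565 values in all, 2 reversed, 1 with its call lost and 1 still called. Other called ones lost the call in 20 values under other settings and in 13 when 1 array was left out, and uncalled ones gained it in 12 and 12. The called Jchain differences within marrow kept their call under all 21 alternatives each, from -6.63 to -4.73 on the log2 scale. With the values as deposited, doubly labelled marrow against marrow labelled Blnk KO had 1 of the 5 genes called, LB31 BLNK against pMY 1 and BLNK against BLNK YF 0, and median centring gave the same counts of 1, 1 and 0. Centring also reversed Mzb1 for BLNK against pMY (0.0067) and for LB31 pMY against doubly labelled marrow (0.38). With all arrays in 1 fit the interaction had 2 genes called and BLNK against BLNK YF 1. Leaving out 1 array gave 1 to 2 genes for doubly labelled marrow against marrow labelled Blnk KO and for the interaction, 1 to 3 for BLNK against BLNK YF and 0 to 1 for BLNK YF against pMY. Single arrays that decided these were any of the 6 of doubly labelled marrow and marrow labelled Blnk KO, LAP tg array 2, BLNK array 1, BLNK YF array 3 and any of the 3 pMY arrays. The causes were not tested. Scaling set the direction of the wider count: of called probe sets, 49.2% were higher in marrow labelled Blnk KO than in wild-type, but 90.6% on the deposited values, where the median probe set shifted by 0.31 on the log2 scale, and 34.0% after centring. For BLNK against pMY the shares were 48.9%, 71.3% and 81.9%, and for LB31 pMY against doubly labelled marrow 51.4%, 22.2% and 58.9%. The count of probe sets called for BLNK YF against pMY ran from 1 to 2069 over the fits that left out 1 array, against 67, and that for doubly labelled marrow against marrow labelled Blnk KO from 812 to 2182, against 1567. Replicate numbers showed little pairing of the samples. Each probe set's group mean was subtracted, and the remainders of same-numbered arrays of different groups were correlated. These correlations ran from -0.0951 to 0.262 in marrow and from -0.0289 to 0.0161 in LB31. Of 18 marrow pairs 1 was over 0.1, LAP tg array 3 with array 3 labelled Blnk KO. As a block, replicate numbers added 1 member call, Sdc1 1437279_x_at for BLNK against BLNK YF (0.54, adjusted p = 0.0146), and left 4 probe sets called for BLNK YF against pMY. They changed no other member call.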
